A study of Mus musculus with 14 samples.

Results

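Kruppel-like factors were followed in tumours of mice labelled Hif2alpha deficient or control. HIF-2α, the product of Epas1, activates genes when oxygen is short. The members were all probesets whose single platform gene symbol is Klf2, Klf3, Klf4, Klf5, Klf6, Klf7, Klf9, Klf10, Klf13 or Klf15. That gave 27 probesets of 10 genes, out of 22690 probesets in the table. The tested arrays came from 7 tumours of Hif2alpha deficient mice, which the labels also call a knockdown, and were set against 7 tumours of control mice. Both groups had a mixed 129 SvJ/C57Bl6 background. The study concerned lung tumours as far as is known, but the labels name no organ, Cre driver, part of Epas1 removed or age. Values are log2 probeset levels that the authors made with GCRMA, a method that subtracts a background predicted from probe sequence. Levels pile up at the floor this background sets, which lay near 2.14 to 2.15 in unvarying member probesets. The cut-off of 4 used here stands above that floor. A value under 4 is close to background and is read as a bound rather than a measurement.

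Kruppel-like factors are transcription factors with zinc fingers near the carboxyl end that bind GC-rich and CACCC-type sequences. Their other domains differ and recruit coactivators or corepressors, so some members activate and others repress. In the lung, Klf2 is known for its role in vessels and T cells, Klf4 in endothelium and epithelial differentiation, and Klf5 in airway and alveolar epithelium. Klf9 and Klf15 are known targets of the glucocorticoid receptor, and Klf10 is an early target of TGF-beta.

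Promoters are shown for Klf9, Klf13 and Klf15, because these 3 genes held every member probeset with an unadjusted p under 0.05 between deficient and control tumours. Each run is the 250 bases before the RefSeq gene start on build GRCm38.p6, with capitals marking the core motif of HIF binding, ACGTG or GCGTG on either strand. The Klf9 window is chr19:23140976-23141225 on the plus strand, the Klf13 window chr7:63938916-63939165 on the minus strand and the Klf15 window chr6:90462326-90462575 on the plus strand.
Klf9: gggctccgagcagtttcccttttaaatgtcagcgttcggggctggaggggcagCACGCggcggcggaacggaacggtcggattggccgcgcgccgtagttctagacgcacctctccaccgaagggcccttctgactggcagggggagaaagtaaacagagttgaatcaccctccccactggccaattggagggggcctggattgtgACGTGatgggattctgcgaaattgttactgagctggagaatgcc
Klf13: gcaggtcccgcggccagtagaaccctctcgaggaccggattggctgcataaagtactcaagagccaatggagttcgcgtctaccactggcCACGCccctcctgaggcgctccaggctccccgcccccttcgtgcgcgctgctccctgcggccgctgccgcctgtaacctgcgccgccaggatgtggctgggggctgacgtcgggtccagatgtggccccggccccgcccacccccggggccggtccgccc
Klf15: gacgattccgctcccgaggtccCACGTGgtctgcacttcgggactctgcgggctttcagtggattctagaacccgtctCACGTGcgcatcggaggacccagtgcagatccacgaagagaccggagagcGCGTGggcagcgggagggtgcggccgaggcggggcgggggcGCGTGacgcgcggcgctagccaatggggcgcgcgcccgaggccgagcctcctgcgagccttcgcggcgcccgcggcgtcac

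The Klf15 window held 6 matches in 4 runs, since CACGTG reads as ACGTG on both strands and also forms the E-box bound by other factors. The Klf9 window held 2 matches and the Klf13 window 1. Windows of 8 members were in the RefSeq table, and 6 of them had a match, those of Klf3, Klf4, Klf6, Klf9, Klf13 and Klf15. Of all 32851 windows of the same length 38.6% had one. The CACCC-type box CCACCC, on either strand, was in 4 of the 8 windows, those of Klf2, Klf3, Klf7 and Klf13, and in 28.1% of all windows. The glucocorticoid receptor half-site AGAACA was in 0 of the 8 windows and in 16.1% of all. A match is a string of letters and not a measured binding site.

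Across arrays, medians lay between 5.13 and 5.20 in deficient and between 5.19 and 5.29 in control tumours. The mean log2 difference between 3' and 5' control probesets of 4 genes, a sign of RNA integrity, ran from 2.53 to 3.08 in deficient and from 2.52 to 3.52 in control arrays. Array descriptions begin with numbers whose leading digits are shared, 4 sets among deficient and 2 among control arrays, with none common to both groups. Within groups, arrays of one leading number deviated together (mean r = 0.112, against -0.28 for other pairs, across probesets). If that number marks a litter or an animal, there are fewer independent tumours than arrays, and p-values here measure only the spread between arrays. A second number in the descriptions runs in 1 unbroken stretch for each group, and anything it may stand for cannot be told apart from the genotype. Epas1 itself differed by -0.19 (SE 0.30), deficient minus control (limma adjusted p = 0.807), and without knowing the deleted part its single probeset does not check the labels. Of the 10 alveolar type II markers on the array, among them the surfactant genes, 0 had a mean under 4 over all arrays. Their summed log2 level was 16.4 to 16.8 in deficient and 16.5 to 16.7 in control tumours. That sum is weighted to its brightest genes, so it does not show each marker above background in each group.

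Testing asked for levels above 4 in 7 or more of the 14 arrays, and this kept 21 member probesets and at least 1 for each of the 10 genes. The members were chosen with earlier results of these data known, so the shares here describe them and do not test the family. By brightest probeset most of the 10 genes lay lower in deficient tumours, but not Klf5 and Klf10. Still, 0 of the 21 probesets passed an adjusted p of 0.05 (limma, Benjamini-Hochberg over all 12701 tested probesets, smallest adjusted p among members 0.148). Over all tested probesets 0.0394% passed. At an unadjusted p under 0.05 there were 6 members, all lower in deficient, or 28.6% of the 21, against 6.57% of all tested probesets. These 6 probesets belonged to 3 genes, with 3 of Klf9, 2 of Klf13 and 1 of Klf15, and probesets of one gene are not independent. With each gene read by its brightest probeset, 2 of 10 genes (Klf13 and Klf15) were lower at that level, against 7.73% of all genes. The fitted difference was below 0 in 18 of 21 member probesets, against 47.4% of all tested probesets, and the median difference was -0.35 on the log2 scale, against 0.02 over all. By brightest probeset it was below 0 in 8 of 10 genes, with a median of -0.40, against 0.00 over all genes. Group ranges overlapped for every tested member probeset, while they did not for 0.496% of all tested probesets.

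**Figure D1:**
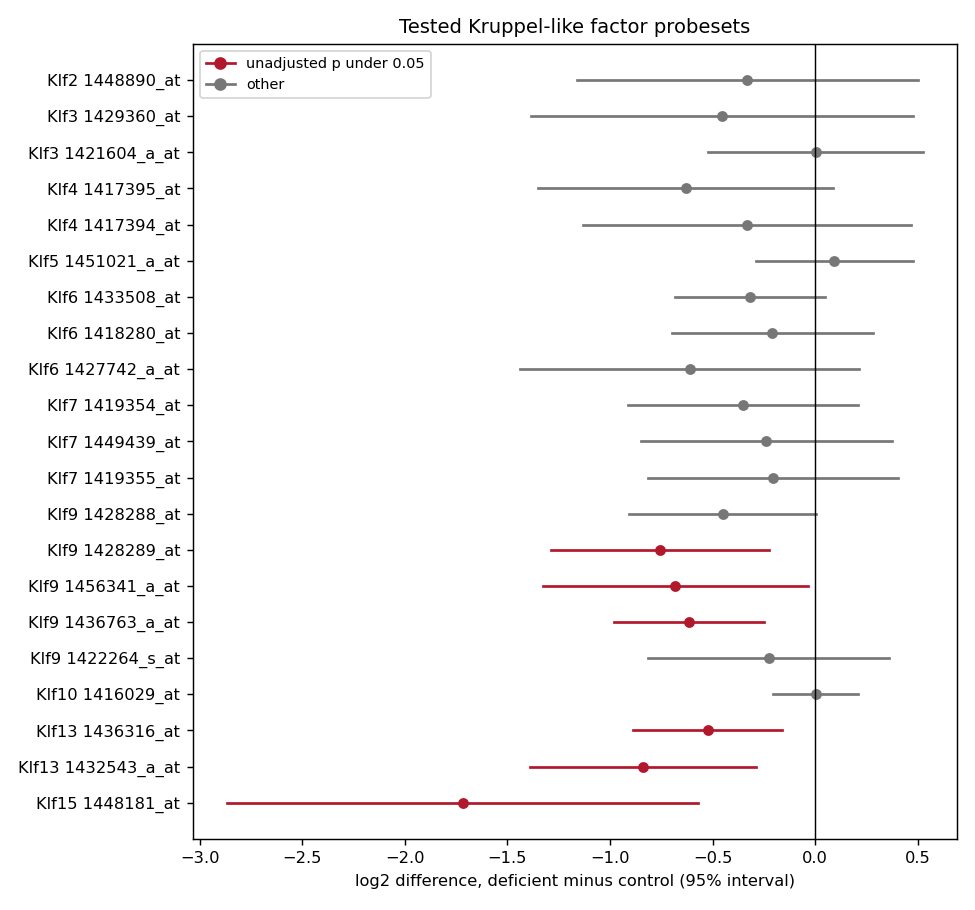
Log2 differences, deficient minus control, with 95% intervals from the limma fit for the 21 tested Kruppel-like factor probesets; colour marks an unadjusted p under 0.05. The 6 marked probesets are those of Klf9, Klf13 and Klf15 and lie left of 0, the widest being Klf15 at -1.72.

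Weighting arrays by their estimated quality altered this count more than any other setting run. With array weights 7 of the 21 members passed, 4 of Klf9, 2 of Klf13 and 1 of Klf15, while 15.0% of all tested probesets (1900) passed as well. In that fit weights ran from 0.276 for deficient 1 to 4.15 for control 5. Fitting the leading number as a random block left 0 members past the threshold, and the adjusted p was 0.989 for each of the 6 probesets.

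Klf15, a factor known for control of amino acid and lipid metabolism downstream of glucocorticoids, showed the widest difference. Its 1 probeset ran from 2.91 through a median of 6.03 to 6.87 in deficient tumours, and from 6.09 through 7.58 to 7.73 in control tumours. Deficient 3, at 2.91, and deficient 2, at 4.40, were the lowest, while 3 deficient arrays lay within the control range. The means were 5.51 ± 1.40 in deficient and 7.23 ± 0.67 in control tumours (SD, n = 7 each), a difference of -1.72 (SE 0.54, limma adjusted p = 0.177). On the linear scale this is 0.304 of the control level, with 1 deficient array under 4. All 7 deficient arrays were below the control mean, and 4 of them were below the lowest control. The difference was -1.29 without deficient 3 and -1.20 without deficient 3 and 6.

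Klf9, a repressor of the same family induced by glucocorticoids and thyroid hormone, was read by 7 probesets, of which 5 were tested. All 5 had a difference below 0. The one with the smallest p among all members, 1436763_a_at, ran from 4.42 through a median of 4.96 to 5.60 in deficient and from 5.27 through 5.47 to 6.12 in control tumours. Of the deficient arrays 6 lay below the lowest control, and deficient 1 lay inside the control range. The means were 4.98 ± 0.36 in deficient and 5.60 ± 0.28 in control tumours, a difference of -0.62 (SE 0.17, limma adjusted p = 0.148). That difference was -0.52 without deficient 3 and -0.53 without deficient 3 and 6.

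A brighter Klf9 probeset, 1428289_at, ran from 7.39 through 8.94 to 9.25 in deficient and from 9.24 through 9.45 to 9.78 in control tumours. The groups met only at the edge, where deficient 1 at 9.25 stood just above the lowest control. The difference was -0.76 (SE 0.25, limma adjusted p = 0.197), or -0.54 without deficient 3 and -0.51 without deficient 3 and 6. For 1456341_a_at the values were 6.87, 8.18 and 9.41 in deficient and 8.28, 8.73 and 9.19 in control tumours (lowest, median, highest). Here deficient 1 was the highest of all 14 arrays, and the difference was -0.68 (SE 0.30, adjusted p = 0.321). That difference was -0.48 without deficient 3 and -0.38 without deficient 3 and 6.

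The brightest Klf9 probeset, 1428288_at, gave 10.5 ± 0.6 in deficient and 11.0 ± 0.2 in control tumours, a difference of -0.45 (SE 0.21, limma adjusted p = 0.344). Deficient 3 was the lowest array in it, at 9.47, and the difference was -0.28 without that array. The remaining tested probeset, 1422264_s_at, whose suffix marks probes that may match other transcripts, lay close to the floor and differed by -0.23 (SE 0.27), or by -0.08 without deficient 3. The other 2 probesets of Klf9 were at 2.14 to 2.15 in every array and gave no measurement. Deviations from the group means correlated at r = 0.508 to 0.881 between the 5 tested Klf9 probesets across the 14 arrays.

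Klf13, known for regulation of the chemokine gene Ccl5 in T lymphocytes and for roles in the heart, was lower in deficient tumours in both tested probesets. The brightest, 1436316_at, ran from 9.98 through a median of 10.3 to 10.8 in deficient and from 10.2 through 10.9 to 11.2 in control tumours. The means were 10.3 ± 0.3 in deficient and 10.8 ± 0.3 in control tumours (SD, n = 7 each), a difference of -0.52 (SE 0.17, limma adjusted p = 0.188). The dimmer probeset, 1432543_a_at, ran from 3.64 through 4.44 to 4.79 in deficient and from 4.33 through 5.35 to 5.59 in control tumours. Its difference was -0.84 (SE 0.26, adjusted p = 0.173), with 2 deficient arrays under 4. Another probeset stayed at 2.14 to 2.17 and was not tested.

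Control levels of Klf13 split by the leading number of the array. Controls 1 and 4, which share one number, read 10.6 and 10.2 in 1436316_at and 4.37 and 4.33 in 1432543_a_at. The 5 controls of the other number read 10.9 to 11.2 and 5.33 to 5.59 in the same probesets. Controls 1 and 4 therefore lay within the deficient range of 9.98 to 10.8 and of 3.64 to 4.79, and the other 5 controls lay above it in both probesets. Without control 4 the difference was -0.62 (limma adjusted p = 0.0722) for the brightest probeset and -0.97 (adjusted p = 0.0801) for the dimmer. These were the smallest adjusted p-values with 1 array left out, and the largest were 0.375 and 0.367 (limma). Leaving out control 4 also raised the count of all probesets past the threshold from 5 to 85, so the lower values are not particular to Klf13. With the leading number fitted as a random block the differences were -0.46 and -0.73 (adjusted p = 0.989 each), and with arrays averaged over it -0.44 and -0.68 (adjusted p = 0.999 each).

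**Figure D2:**
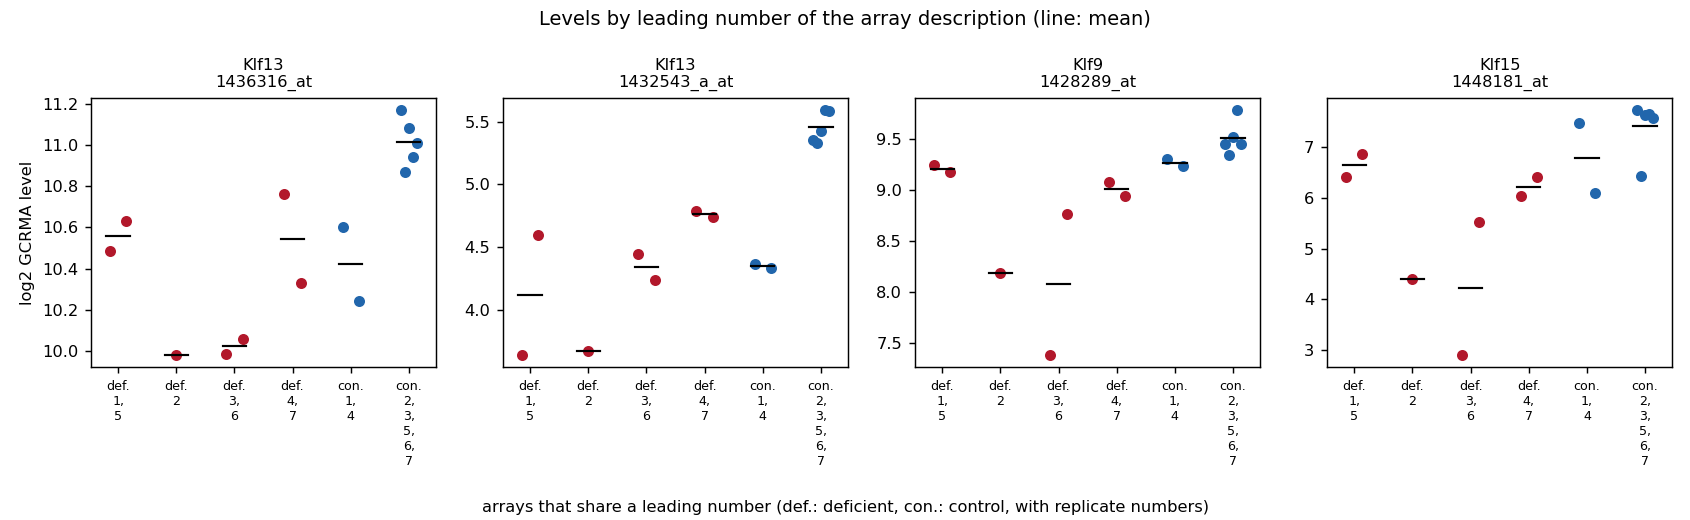
Log2 GCRMA levels of 2 Klf13 probesets, 1 Klf9 probeset and the Klf15 probeset, with arrays set apart by the leading number of their description (deficient in red on the left, control in blue on the right, line for the mean). In both Klf13 panels controls 1 and 4 sit at deficient levels, and the other 5 controls sit above.

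Klf2 and Klf4, the members best known in endothelium, had levels in deficient tumours that spread wider than in controls. Klf2 ran from 4.66 through a median of 6.18 to 7.36 in deficient and from 5.64 through 6.32 to 7.41 in control tumours. Its means were 6.10 ± 0.98 in deficient and 6.43 ± 0.53 in control tumours, a difference of -0.33 (SE 0.39, limma adjusted p = 0.729, 95% interval -1.16 to 0.50). The brightest Klf4 probeset ran from 6.82 through 8.29 to 8.84 in deficient and from 7.94 through 8.38 to 9.57 in control tumours. Its difference was -0.63 (SE 0.34, adjusted p = 0.401), and that of the other Klf4 probeset was -0.33 (SE 0.37). Deficient 3 and 6 were the lowest arrays for both genes. Without deficient 3 alone the difference was -0.09 for Klf2 and -0.12 for the other Klf4 probeset. Without those 2 arrays the difference was 0.16 for Klf2, 0.17 for the other Klf4 probeset and -0.20 for the brightest, so its direction for Klf2 and for 1 of the Klf4 probesets rests on them.

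Markers of endothelium were set beside Klf2 and Klf4 as values, and no correlation with them was computed. All 15 listed endothelial markers were tested and lay lower in deficient tumours, with a median difference of -0.64. Of them 1 was at an unadjusted p under 0.05, and 0 passed the adjusted threshold. Among all genes by brightest probeset 7.73% were lower at that unadjusted level. Their summed log2 level ran from 10.5 to 13.7 in deficient and from 12.0 to 13.3 in control tumours, and 0 of them had a mean under 4. Deficient 3 and 6 held the lowest sums, 10.5 and 10.9. Deficient 1, the highest at 13.7, and deficient 5, at 13.4, lay above every control. Among deficient arrays, 3 and 6 also had the lowest sums of club cell markers (13.9 and 14.6) and ciliated cell markers (6.71 and 6.38). In a piece of tumour, fewer cells of a type and less RNA per cell cannot be told apart. The part of endothelial content in the Klf2 and Klf4 values was not tested.

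**Figure D3:**
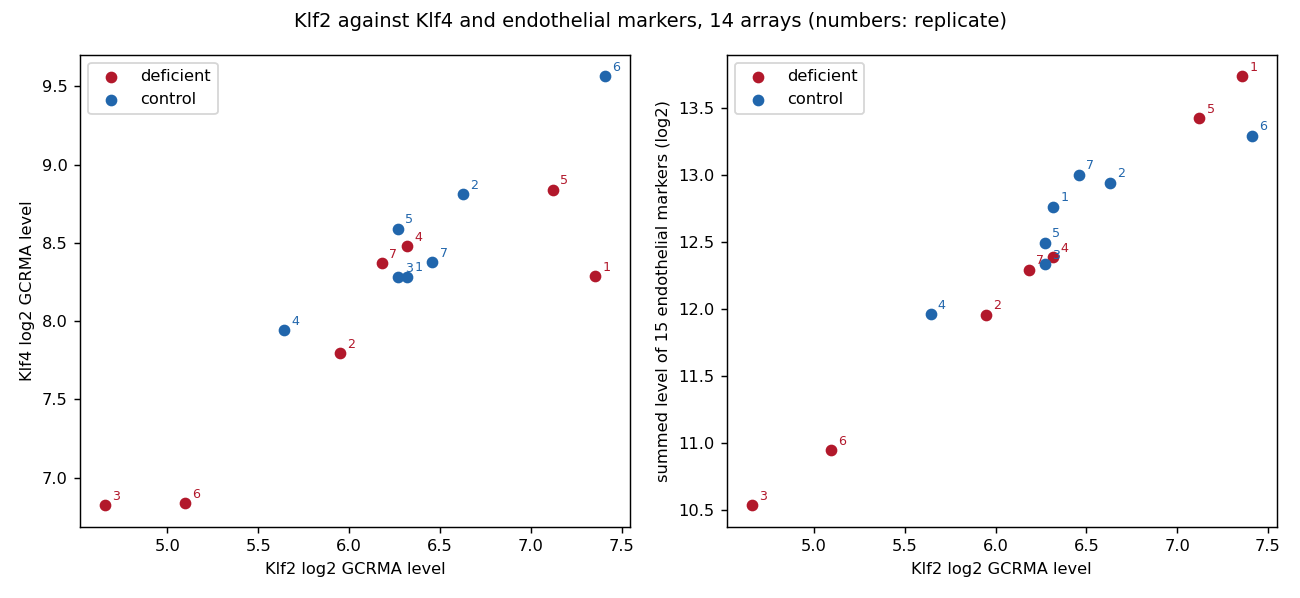
Klf2 level against the brightest Klf4 probeset (left) and against the summed log2 level of 15 endothelial markers (right), 1 point for each of 14 arrays with its replicate number, deficient in red and control in blue. Deficient 3 and 6 lie at the lower left of both panels, with endothelial sums of 10.5 and 10.9.

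Among members, deviations from the group means were compared for all 45 pairs of the 10 genes, each by its brightest probeset, over 14 arrays. Of these pairs 31 correlated positively, and by Pearson's r 3 had an adjusted p under 0.05, by Spearman's rho 4 (two-sided permutation within groups, 100000 resamples, Benjamini-Hochberg over the 45 pairs). Klf2 and Klf4 correlated most closely, with Pearson's r = 0.908 (permutation p = 0.0002, adjusted p = 0.009) and Spearman's rho = 0.895 (permutation p = 0.00019, adjusted p = 0.00525). The r was 0.951 without deficient 1 and 3, the arrays farthest from the median of Klf2, and 0.782 within leading numbers over 13 arrays. It was 0.896 among deficient and 0.954 among control arrays.

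Klf9 and Klf15 correlated at r = 0.860 (permutation p = 0.0024, adjusted p = 0.0384), with rho = 0.670 (permutation p = 0.0332, adjusted p = 0.213). That r was 0.680 without deficient 1 and 3 and 0.825 within leading numbers. Klf13 and Klf15 correlated at r = 0.716 (permutation p = 0.00256, adjusted p = 0.0384), with rho = 0.758 (permutation p = 0.00327, adjusted p = 0.0368). Here r was 0.637 without control 4 and deficient 2, the arrays farthest from the median of Klf13, and 0.432 within leading numbers. Deficient 3, the lowest array of Klf15, stayed in. Klf15 also followed Klf2 and Klf4 by rank. With Klf2 it gave rho = 0.882 (permutation p = 0.00035, adjusted p = 0.00525) and r = 0.776 (permutation p = 0.00459, adjusted p = 0.0516). With Klf4 it gave rho = 0.855 (permutation p = 0.00032, adjusted p = 0.00525) and r = 0.739 (permutation p = 0.00823, adjusted p = 0.0617). Without the 2 arrays farthest from the median of Klf2 r was 0.627, and without the 2 farthest from that of Klf4 it was 0.683. Arrays farthest for Klf15 were not chosen in either case. Within leading numbers r was 0.516 for Klf2 and 0.346 for Klf4. These p-values take the 14 arrays as independent.

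Genes whose deviations were most like those of a member were taken for the 3 members with the smallest p, over 14 arrays and as a description. For Klf9 (1436763_a_at) these were Gjc1, Rwdd3 and Sox13, at r = 0.915, 0.908 and 0.900. For Klf13 (1432543_a_at) they were Bst2, Ms4a6c and Gbp7, at r = 0.905, 0.888 and 0.886. For Klf15 they were Cytip, Nfam1 and Cldn10, at r = 0.951, 0.948 and 0.933. The differences of these 9 genes were all below 0, from -0.26 for Rwdd3 to -2.98 for Cldn10, and none passed the adjusted threshold (limma).

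Klf6, a tumour suppressor candidate that is also an immediate early gene, was bright in its main probeset. That probeset, 1433508_at, ran from 10.9 through a median of 11.3 to 11.9 in deficient and from 11.4 through 11.7 to 12.2 in control tumours. Of the deficient arrays 5 lay below the lowest control, but deficient 5 and 7 lay well inside the control range. The difference was -0.32 (SE 0.17, limma adjusted p = 0.408, 95% interval -0.68 to 0.05), and the other 2 probesets differed by -0.21 (SE 0.23) in 1418280_at and -0.61 (SE 0.39) in 1427742_a_at. The first was -0.05 without control 6, and the other was -0.38 without deficient 1. Control 6 was the highest array in all 3 Klf6 probesets.

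Klf7, known for its role in neurons and as a repressor of fat cell differentiation, ran from 7.19 through 8.02 to 8.93 in deficient and from 7.79 through 8.46 to 9.18 in control tumours. The groups overlapped over most of their range, with a difference of -0.35 (SE 0.26, limma adjusted p = 0.57). Without deficient 2 it was -0.20. Its other tested probesets differed by -0.24 (SE 0.29) in 1449439_at, which was -0.09 without deficient 2, and by -0.21 (SE 0.29) in 1419355_at, which was 0.002 without control 6, and 1 more was above 4 in 6 arrays and not tested.

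Klf3, a repressor that recruits the corepressor CtBP, gave readings that depended on the probeset. The brightest, 1429360_at, ran from 4.26 through 7.35 to 7.94 in deficient and from 6.95 through 7.44 to 7.77 in control tumours. The width came from deficient 1, at 4.26, since the other 6 deficient arrays read 7.16 to 7.94. The difference of -0.46 (SE 0.44, limma adjusted p = 0.666) was -0.00393 without that array. In 1421604_a_at deficient 1 read 6.19, against 6.25 to 7.53 in the other deficient arrays, and the difference between groups was 0.00 (SE 0.24, 95% interval -0.52 to 0.52). Another probeset was above 4 in 4 arrays and not tested.

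Klf5, a growth-promoting factor of epithelial cells, ran from 7.29 through 8.003 to 8.39 in deficient and from 7.48 through 7.79 to 8.23 in control tumours. The deficient range enclosed that of the controls, with a difference of 0.09 (SE 0.18, limma adjusted p = 0.848, 95% interval -0.29 to 0.48). A second Klf5 probeset was above 4 in 2 arrays and was not tested. Klf10, also called TIEG1, had a narrow range among arrays, from 10.28 through 10.33 to 10.60 in deficient and from 10.04 through 10.42 to 10.56 in control tumours. Its difference was 0.00 (SE 0.10, adjusted p = 0.995), with a 95% interval of -0.21 to 0.21.

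**Figure D4:**
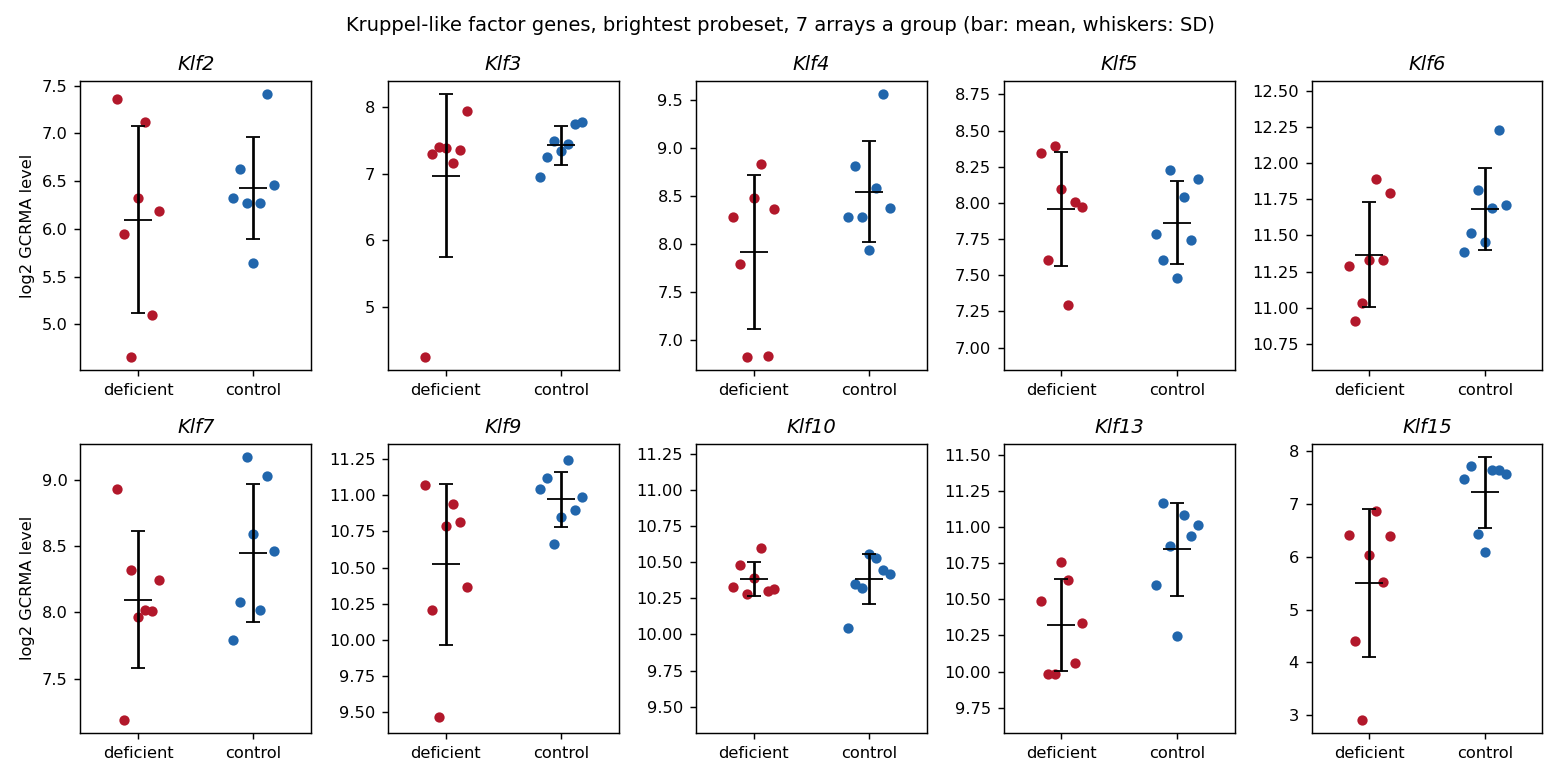
Log2 GCRMA levels of the brightest probeset of each of the 10 genes, 1 point per array with deficient tumours left of control tumours, and bars for mean and SD (n = 7 each). Klf15 and Klf13 show most controls above the deficient arrays, while Klf5 and Klf10 overlap throughout.

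Other genes of the family and its pathways were read by their brightest probesets, and 0 of them passed the adjusted threshold in any list. These lists were chosen with earlier results of these data known, so their counts are a description and not a test. Of 13 genes responsive to glucocorticoids, listed because Klf9 and Klf15 belong to that response, 11 lay lower in deficient tumours and 2 higher, 5 of them lower at an unadjusted p under 0.05. Among all 7771 genes by brightest probeset 7.73% were lower and 7.45% higher at that level. The list's median difference was -0.36, against 0.00 over all genes by brightest probeset. The clock gene Per1 differed by -1.37 (SE 0.34, limma adjusted p = 0.132), the transcription factor gene Cebpd by -0.79 (SE 0.23, adjusted p = 0.158) and Fkbp5, which encodes an inhibitor of the glucocorticoid receptor, by -1.20 (SE 0.35, adjusted p = 0.160). The brightest of the list, Mt1, differed by -0.03 (SE 0.21).

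Of 5 tested relatives in the KLF and SP family, all outside the member list, 5 lay higher in deficient tumours with a median of 0.45. At an unadjusted p under 0.05 there were 2 of them, against 7.45% of all genes by brightest probeset higher at that level. The relatives included Sp3 (0.77, SE 0.33), Sp5 (0.85, SE 0.42) and the brightest, Sp1 (0.18, SE 0.32). Klf16, itself a Kruppel-like factor but not a listed member, differed by 0.45 (SE 0.20). Klf1, Klf12, Klf17, Sp6 and Sp7 averaged under 4. In the ERK5 and MEF2 cascade, which induces Klf2 and Klf4 in endothelium, 6 of 8 tested genes lay lower with a median of -0.14. Hdac5, a class IIa deacetylase that represses MEF2, differed by -0.40 (SE 0.14) and Mapk7, which encodes ERK5, by -0.38 (SE 0.18), beside Map2k5 (-0.14, SE 0.17, with 0.07 in its other probeset) and Mef2a (0.05, SE 0.13). Of 6 tested endothelial targets of KLF2 and KLF4, 5 lay lower with a median of -0.35, among them Aqp1 (-0.79, SE 0.41) and Thbd, which encodes thrombomodulin (-1.05, SE 0.62), while Cyp1b1 lay higher (0.88, SE 0.91). Without deficient 3 and 6 these differences were -0.20 for Aqp1, -0.18 for Thbd and 0.14 for Cyp1b1, and without deficient 3 alone that of Thbd was -0.53.

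Among 11 tested cofactors and ubiquitin ligases of KLF proteins, 8 lay higher with a median of 0.09. Ctbp2 differed by 0.27 (SE 0.12, with -0.16 in its other probeset), Wwp1, a ligase acting on KLF2 and KLF5, by 0.41 (SE 0.18), Sap30 by 0.33 (SE 0.26) and Ctbp1 by -0.06 (SE 0.08). Of 7 tested growth targets 5 lay higher with a median of 0.24, including Cdkn1b (0.44, SE 0.15, with -0.30 in its other probeset), Ccnd1 (0.24, SE 0.10) and Cdkn2b (0.48, SE 0.30). The 9 genes of the early TGF-beta response were split, 4 higher and 5 lower with a median of -0.03, with Skil at 0.21 (SE 0.11), Ltbp2 at -0.47 (SE 0.25) and Tgfb1 at -0.37 (SE 0.31). Of 11 immediate early genes 7 lay higher with a median of 0.11, with Egr1 at 0.55 (SE 0.20), Ier3 at -0.38 (SE 0.24) and Atf3 at 0.48 (SE 0.35). The 5 tested HIF core genes had a median of 0.11, with Hif1a at 0.32 (SE 0.11, with -0.01 and -0.70 in its other probesets), Egln2 at -0.30 (SE 0.13) and Cited2 at 0.15 (SE 0.16, with -0.12 in its other probeset).

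Airway markers also lay lower in deficient tumours, as did Klf9, Klf13 and Klf15. Of 8 club cell markers 7 were lower, 5 at an unadjusted p under 0.05, with a summed log2 level of 13.9 to 15.7 in deficient and 15.1 to 16.1 in control tumours. Of 4 tested ciliated cell markers 4 were lower at that level, with a sum over the 5 on the array of 6.38 to 10.4 in deficient and 9.43 to 12.6 in control tumours, and the defining factor Foxj1 averaged under 4. Deficient 3 held the lowest club sum and deficient 6 the lowest ciliated sum. T and B cell markers were lower in 4 of 6 tested, with a median of -0.47 and 2 lower and 1 higher at that level. They summed to 8.71 to 9.83 in deficient and 8.85 to 10.02 in control tumours, with Cd4, Cd8a and Cd79a under 4 on average. Macrophage markers were lower in 7 of 9, 3 of them at that level, with sums of 14.2 to 15.2 in deficient and 14.6 to 15.1 in control tumours. Fibroblast markers were lower in 6 of 7, 2 of them at that level, with sums of 12.1 to 12.6 in deficient and 12.2 to 13.3 in control tumours. Smooth muscle markers were lower in 4 of 4 tested, 0 of them at that level (10.02 to 11.5 in deficient and 9.89 to 11.9 in control tumours), while Cnn1, Des, Lmod1 and Smtn averaged under 4. Alveolar type I markers were lower in 6 of 7, 2 of them at that level (13.6 to 14.4 in deficient and 14.05 to 14.4 in control tumours). Alveolar type II markers leaned the other way, 8 higher and 2 lower, with a median of 0.03 and 1 higher at that level. Over all genes by brightest probeset, 7.73% were lower and 7.45% higher at that level. The part of these cell types in the values of the Kruppel-like factors was not tested.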

How the data were processed

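Total RNA from 14 tumours was extracted with Trizol and hybridised as biotinylated cRNA to Affymetrix mouse arrays, per the labels' protocols. The authors deposited log2 levels per probeset from GCRMA, which the submitters' processing notes name; its version and a genome build are not given in the sources used here. Gene names come from the platform annotation, which gave 1 gene for 20380 probesets. Non-control probesets above 4 in at least 7 of 14 arrays were tested with limma 3.58.1 in R 4.3.3 (lmFit with 1 group term, eBayes, two-sided, Benjamini-Hochberg over 12701 probesets). The fit was tested on simulated data with independent arrays, which does not cover any dependence between arrays of one leading number. Differences are deficient minus control with the SE of the fit. The number of arrays limits the precision. Correlations were computed in scipy 1.17.1. A gene's brightest probeset has the highest mean over 14 arrays. The summed level of a list is the log2 of its brightest probesets' summed linear values.

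Every member is accounted for. Member probesets with an unadjusted p under 0.05, and the brightest probeset of each other member, are given by array range. Of pathway lists, the 3 genes with the smallest p and the brightest are named, and cell type lists are given by counts and summed levels. The members and lists were chosen with earlier results of these data known. Alternatives covered the filter, normalisation, variance model, array weights, replicate and leading numbers, threshold and arrays left out. Erythroid markers, 2 on the array and both under 4, were not tested.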

Additional observations from a re-analysis of the deposited data

Results flagged for a closer look

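In 3 of 42 groups of 7 arrays, 1 array stood apart from the rest by Dixon's 95% criterion, and chance alone gives about 1 in 20. In Klf3 probeset 1429360_at deficient 1 read 4.26, against 7.16 to 7.94 in the other deficient arrays. In Klf6 probeset 1418280_at control 6 read 9.07, against 7.74 to 8.09 in the other controls. In Klf9 probeset 1422264_s_at control 3 read 3.24, a value under the cut-off of 4, against 4.11 to 4.73 in the other controls.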

How the results depend on the processing

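The 0 Kruppel-like factor probesets past the threshold stayed 0 in every setting run except array weights, which gave 7, and at an adjusted p under 0.10 there were also 0. Over all probesets the count was 5, and it was 0 without a filter, with the leading number fitted as a random block or with arrays averaged over it, 2 with the replicate block, 9 with trend and robust variance, 11 at an adjusted p under 0.10, 32 without both deficient 3 and 6, and 1900 with array weights; leaving out 1 array gave 0 to 85. The median difference over members stayed below 0, at -0.49 to -0.26 with 1 array left out and -0.24 without both deficient 3 and 6. Members at an unadjusted p under 0.05 numbered 5 of 21 with the random block (against 2.23% of all probesets lower at that level) and 1 of 21 with arrays averaged (1.61%). Of the 21 member differences 6 changed sign in some setting. Klf2 read 0.16 and Klf4 1417394_at 0.17 without both deficient 3 and 6, Klf5 read -0.00237 there and -0.00884 with array weights, Klf3 1421604_a_at read -0.0108 with array weights and Klf10 -0.0342 after quantile normalisation. With 1 array left out Klf3 1421604_a_at ran from -0.0986 to 0.126, Klf10 from -0.0548 to 0.0309 and Klf7 1419355_at from -0.344 to 0.00176. Among other named genes, Map2k5 read 0.0347 and Mef2a -0.00107 with arrays averaged over the leading number, and with 1 array left out Mef2a ran from -0.00633 to 0.131 and Mt1 from -0.184 to 0.045. The causes were not tested. Replicate numbers do not pair the arrays, since same-numbered deviations correlated at -0.23 to 0.22 and 0 of 7 deficient arrays correlated best with their own number, and the replicate block called 0 members. Signal at or near background limits the 6 member probesets that were not tested.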
